A study of Mus musculus with 16 samples.

Results

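The genes described here are 32 actin cytoskeleton genes and their transcription factors, taken by symbol from the FPKM tables of bone endothelial cells (ECs) and by Ensembl identifier where a file carries no symbols. They comprise 2 actins, 4 proteins of monomer binding and filament turnover, 5 cross-linkers, 7 calponins, caldesmon and tropomyosins, 6 heavy and light chains of nonmuscle myosin II, 3 ERM proteins, 2 LIM proteins of focal adhesions, and serum response factor (Srf) with its coactivators Mkl1 and Mkl2, now named Mrtfa and Mrtfb. All 32 were found in each of 3 sets of libraries, among 38926 genes in the tables of the mpEC, bmEC and Lats2 libraries and 21603 in the files of the Yap1/Taz libraries. FPKM is the number of sequenced fragments of a gene scaled to its length in kilobases and to the size of the library, so that levels of different genes are compared here per length.

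All mice were on a C57BL/6 background and ECs were sorted by FACS from bone at 3 weeks of age according to the methods of the study, which also state that the reporter was bred into the mutant lines. The mpEC and bmEC libraries (3 each) are labelled wildtype and come from Cdh5-mT/nG reporter mice, in which an endothelial Cdh5 promoter drives membrane tdTomato and nuclear GFP. mpECs were taken from the metaphysis, the region of columnar vessels next to the growth plate, and bmECs from the marrow of the diaphysis with its sinusoidal network. The Yap1/Taz set holds 3 control libraries that carry loxP-flanked Yap1 and Wwtr1 (the gene for Taz) without Cre, and 3 libraries labelled ECKO with the same alleles and Cdh5-CreERT2, all from postnatal day 21. The Lats2 set holds 2 control libraries (loxP-flanked Lats2, no Cre) and 2 Lats2 cKO libraries with Cdh5-CreERT2. In the methods, pups received tamoxifen, and Cre-negative littermates served as controls. The Cdh5 promoter is active in endothelium of all organs, so the deletion is not restricted to bone vessels. Whether animals were pooled for a library is not given in the sources used here, so the p-values measure the spread between these libraries.

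Actin cycles between monomers and filaments. Profilin, cofilin and the beta-thymosins set the monomer pool, tropomyosins, calponins and caldesmon decorate filaments, alpha-actinins and filamin link them, and nonmuscle myosin II pulls on them. Actin monomers also bind the MRTF coactivators, and when monomers are consumed by polymerisation the MRTFs enter the nucleus and act with SRF at CArG boxes in the promoters of actin, myosin light chain and other cytoskeletal genes, Srf included. Lats2 is a kinase of the Hippo pathway that phosphorylates Yap1 and Taz and so keeps them out of the nucleus, and Yap1 and Taz activity also responds to tension on the actin cytoskeleton. In endothelium this machinery is known for its part in cell shape, junctions and the response to flow.

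Of the 32 genes, 31 had promoter windows in a RefSeq-derived table of GRCm38.p6 (250 bases before to 50 bases after each annotated start site), and Actb had none. A perfect CArG box, the SRF binding sequence, which reads as a CArG box on both strands, was present in the windows of 7 of the 31 genes (22.6%), against 488 of 27025 genes with a window (1.81%). The 32 genes were chosen as actin cytoskeleton and SRF-linked genes and include known SRF targets. A share above that of all genes therefore follows from the choice and is not a result. The 7 genes were Srf, Actg1, Cnn2, Myl9, Myl6, Fhl2 and Lima1. They are shown because 6 of the 7 were among the genes called higher in Lats2 cKO libraries. Of all members with a window tested there, 18 were called higher and 12 were not called, and the overlap was not tested. Each sequence is given in the direction of transcription with the CArG box in capitals. A further box of Fhl2, which overlaps an exon, is not shown. The boxes of Srf at chr17:46556225-46556254 and chr17:46556205-46556234 (minus strand, upstream of the gene) start 82 and 62 bases before the start site. Those of Actg1 at chr11:120348566-120348595 (minus strand), Cnn2 at chr10:79988534-79988563 (plus strand) and Myl9 at chr2:156775293-156775322 (plus strand) are also upstream of the gene. The windows of Fhl2 at chr1:43163973-43164002 and Lima1 at chr15:99820177-99820206 (both minus strand) precede internal start sites and lie in introns, and that of Myl6 at chr10:128493040-128493069 (minus strand) overlaps an annotated exon of a longer transcript.
Srf, distal box: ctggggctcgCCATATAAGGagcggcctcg
Srf, proximal box: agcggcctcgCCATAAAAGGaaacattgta
Actg1: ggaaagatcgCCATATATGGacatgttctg
Cnn2: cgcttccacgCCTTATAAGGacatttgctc
Myl9: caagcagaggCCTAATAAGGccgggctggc
Myl6: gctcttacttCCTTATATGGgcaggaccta
Fhl2: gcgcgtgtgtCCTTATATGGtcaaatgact
Lima1: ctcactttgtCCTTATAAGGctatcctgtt

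The core motif of the TEAD partners of Yap1 and Taz, CATTCC on either strand, was found in the windows of 9 of the 31 genes (29.0%), against 16.6% of all genes with a window. A match describes these letters only. No member held both motifs.

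The libraries of the mpEC and bmEC set held 11165559 to 14808745 reads, those of the Yap1/Taz set 4889945 to 7162965 and those of the Lats2 set 4746630 to 7085890, as recovered from the FPKM values and gene lengths. The 3 sets were normalised separately, so levels are compared between groups within a set only. Endothelial markers were present in every library, with Cdh5 at 101 to 276.5 FPKM, but so were leukocyte transcripts such as Ptprc and erythroid transcripts. In the mpEC and bmEC set the leukocyte gene S100a8, at 4756 to 13741 FPKM, exceeded Cdh5 in every library. Hemoglobin genes made up 6.79 to 11.8% of all FPKM in that set, 1.37 to 2.14% in the Yap1/Taz set and 0.053 to 1.02% in the Lats2 set. The levels of the targeted genes in these files did not show the deletion that the label ECKO names. Yap1 was at 1.07, 1.62 and 0.995 FPKM in the control libraries and 1.43, 1.03 and 0.989 FPKM in the libraries labelled ECKO, and Wwtr1 rose from 10.01, 9.88 and 10.3 FPKM to 15.3, 19.6 and 19.5 FPKM (adjusted p = 0.027, limma). Yap1 was not called lower (log2 fold change -0.04, limma adjusted p = 0.93), its groups overlapped, and directions in that set refer to the labels. Lats2 was at 23.4 and 24.0 FPKM in its control and at 19.2 in both Lats2 cKO libraries, a log2 fold change of -0.29 that did not pass the test (limma, adjusted p = 0.12). The files count whole genes, so reads from exons outside the deleted part are included in these values.

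In bmECs, the 32 genes together made up a smaller part of the transcriptome than in mpECs. Their summed share of all FPKM was 3.09%, 3.09% and 3.32% in the mpEC libraries and 2.29%, 2.25% and 2.26% in the bmEC libraries (exact permutation test, p = 0.1, the smallest p that 3 against 3 libraries allow). Of 30 genes that passed a mean of 1 FPKM, 12 fell and 3 rose in bmECs at an adjusted p under 0.05 (limma on log2(FPKM + 1), all 11422 genes of the comparison tested together), where 10.5% of all genes tested were lower and 13.0% higher. Either way, 15 of 30 genes were called, against 23.5% of all genes. The groups of 19 of the 30 genes did not overlap, against 41.3% of all genes, and 16 had an unadjusted p under 0.05, against 36.1%. The median log2 fold change of the 30 genes was -0.18, and that of all genes tested was within 0.01 of 0. In these bulk libraries, fewer cells of a type and less RNA per cell cannot be told apart.

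**Figure D1:**
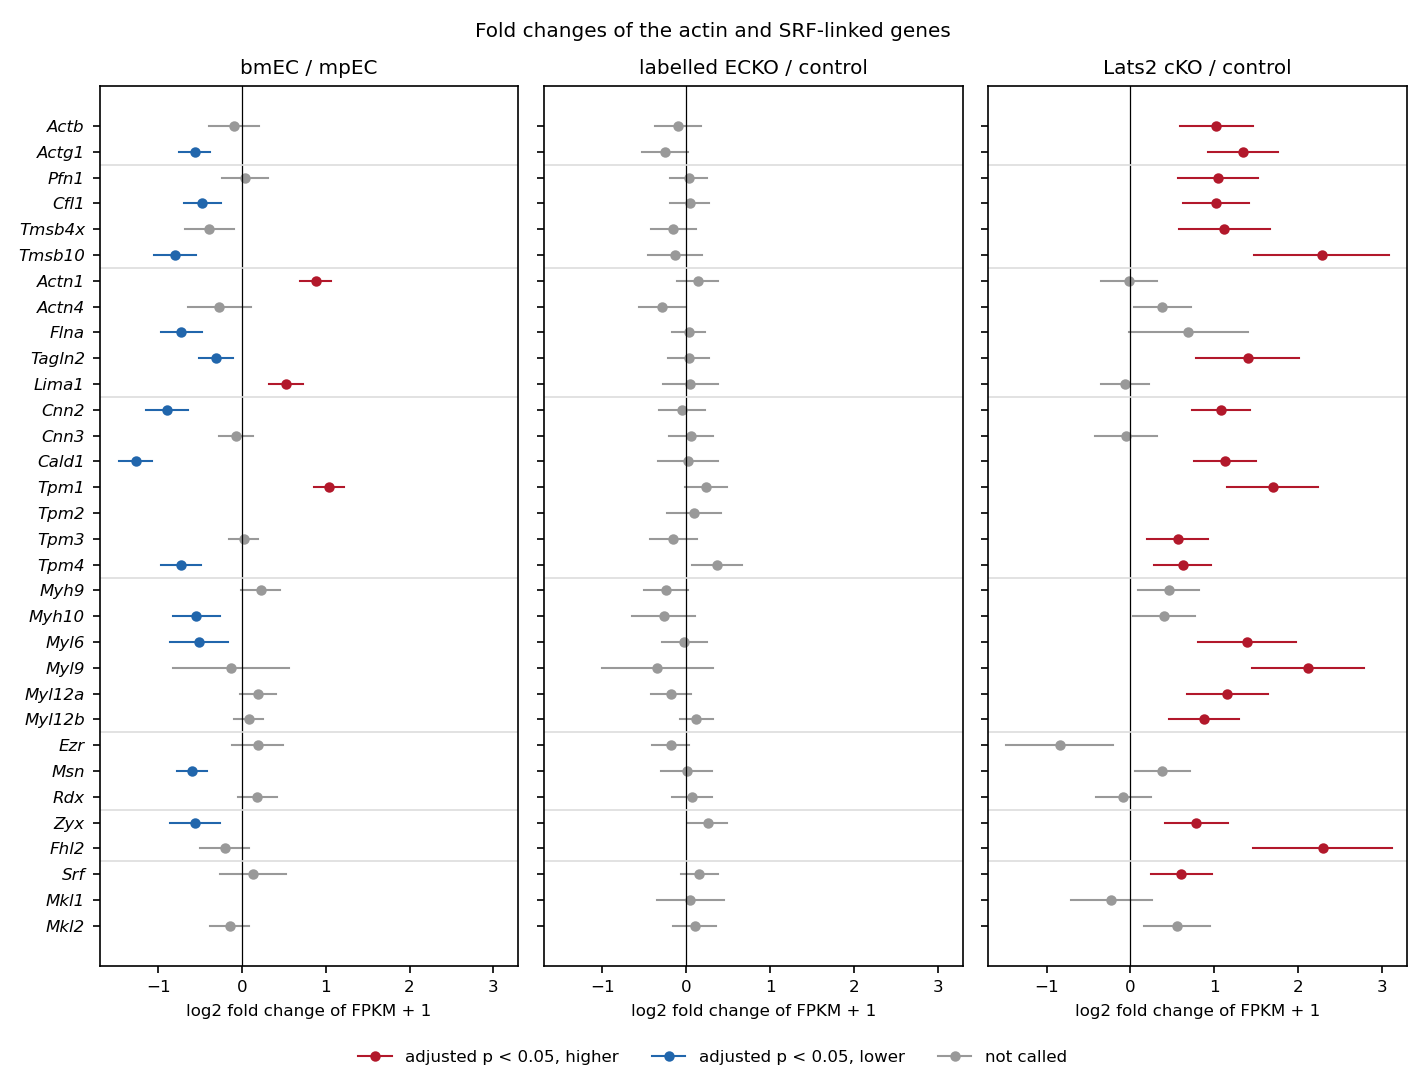
Log2 fold change of FPKM + 1 (points) with 95% confidence interval (lines) of each gene in bmECs against mpECs, in libraries labelled ECKO against control, and in Lats2 cKO against control, on the same axis. Grey lines separate the roles; 12 genes are called lower and 3 higher in bmECs, none in libraries labelled ECKO, and 19 higher in Lats2 cKO, and untested genes have no point.

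Both actins were abundant, and they did not move alike. Actb, the main cytoplasmic actin, was at 2330, 1776 and 1826 FPKM in mpECs and 1958, 1837 and 1728 FPKM in bmECs, with overlapping groups and a log2 fold change of -0.09 (95% confidence interval -0.39 to 0.20, adjusted p = 0.64). Actg1, the gamma actin, fell from 111 ± 8.66 to 74.2 ± 1.55 FPKM (SD, n = 3 each; log2 fold change -0.57, limma adjusted p = 0.0021). Among the genes of monomer binding and turnover, Tmsb10, a beta-thymosin that holds actin monomers, stood at 1187, 1037 and 1119 FPKM in mpECs and 721, 599 and 604 FPKM in bmECs. All bmEC libraries lay under all mpEC libraries, and the log2 fold change was -0.80 (limma, adjusted p = 0.0014). Cofilin (Cfl1), which severs filaments, fell by 0.47 on the log2 scale, and profilin (Pfn1) differed by 0.04 (-0.23 to 0.31). Tmsb4x, the most abundant of the 32 genes in both regions, was at 4282 ± 329 and 3280 ± 365 FPKM (SD, n = 3 each). Its groups did not overlap but it missed the threshold at an adjusted p of 0.060, with adjusted p from 0.0030 to 0.27 over the alternatives.

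The cross-linkers moved in opposite directions. Actn1, the alpha-actinin of stress fibres and focal adhesions, was at 18.1, 19.1 and 17.5 FPKM in mpECs and 35.7, 33.4 and 34.0 FPKM in bmECs, so that the lowest bmEC library lay far above the highest mpEC library. Its log2 fold change of 0.88 (SE 0.079, limma adjusted p = 0.00022) was accompanied by a rise of Lima1, an actin-bundling LIM protein also found at junctions, from 17.8 ± 1.53 to 26.0 ± 0.543 FPKM (SD, n = 3 each; 0.53 on the log2 scale). Flna, the filamin that connects cortical filaments with membrane receptors, was at 14.4, 14.0 and 14.2 FPKM in mpECs and at 9.46, 7.33 and 8.01 FPKM in bmECs. It fell by 0.72 on the log2 scale (limma, adjusted p = 0.0022), and Tagln2, a small filament-binding protein, fell by 0.31, a call that held in 10 of 17 alternative settings. Actn4 had overlapping groups (log2 fold change -0.27, -0.64 to 0.10).

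The filament-decorating proteins held the largest differences of both signs. Cald1, caldesmon, was at 64.6, 68.6 and 76.4 FPKM in mpECs and 28.4, 27.8 and 28.8 FPKM in bmECs, and its log2 fold change was -1.27 (SE 0.086, limma adjusted p = 6.9e-05). Tpm1, a tropomyosin of stable and contractile filaments, was at 43.7, 47.6 and 43.8 FPKM in mpECs and 97.2, 92.6 and 90.7 FPKM in bmECs. No library of either gene crossed into the other group, and Tpm1 rose by 1.04 on the log2 scale (SE 0.076, limma adjusted p = 8.7e-05). Cnn2, a calponin of nonmuscle cells, stood at 72.7, 69.5 and 83.0 FPKM in mpECs and 42.2, 34.8 and 42.7 FPKM in bmECs (log2 fold change -0.90, limma adjusted p = 0.00092). Tpm4, the most abundant tropomyosin here, was at 666, 676 and 765 FPKM in mpECs and 438, 453 and 382 FPKM in bmECs (log2 fold change -0.73, limma adjusted p = 0.0018). The related Cnn3 and Tpm3 differed by -0.07 and 0.02 on the log2 scale with intervals of -0.27 to 0.13 and -0.16 to 0.20, and Tpm2 stayed under the filter at 0.482 to 1.21 FPKM.

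Nonmuscle myosin II showed fewer calls. Of its 6 genes, the heavy chain Myh10 fell by 0.54 and the essential light chain Myl6 by 0.51 on the log2 scale, the latter called in 9 of 17 alternative settings. The heavy chain Myh9 was at 7.12 ± 0.258 and 8.49 ± 0.833 FPKM (SD, n = 3 each) and the regulatory light chains Myl9, Myl12a and Myl12b had log2 fold changes of -0.13, 0.19 and 0.08, none of which passed the test. Myl12a and Myl12b are near-identical neighbours, and reads that match both may be miscounted.

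Moesin (Msn), the most abundant ERM gene in these libraries, whose protein ties filaments to the plasma membrane, was at 231, 251 and 254 FPKM in mpECs and 162, 159 and 165 FPKM in bmECs, with no overlap (log2 fold change -0.59, limma adjusted p = 0.0012). Ezrin and radixin, its paralogs, had log2 fold changes of 0.19 and 0.18 that did not pass. Zyxin (Zyx), a LIM protein recruited to strained filaments at focal adhesions, fell from 23.2 ± 2.31 to 15.5 ± 2.47 FPKM (SD, n = 3 each; -0.56 on the log2 scale, limma adjusted p = 0.016), and Fhl2 was at 1.09 to 1.66 FPKM in all 6 libraries. Srf was at 0.652, 1.08 and 1.38 FPKM in mpECs and 1.37, 1.14 and 1.12 FPKM in bmECs, and Mkl2 at 9.45, 10.3 and 9.45 FPKM and 8.65, 9.54 and 7.88 FPKM. Mkl1 was under the filter, at 0.781, 0.754 and 0.623 FPKM in mpECs and 0.716, 0.484 and 0.778 FPKM in bmECs. Groups overlapped for all 3 factors, with log2 fold changes of 0.13 (-0.26 to 0.52) for Srf and -0.15 (-0.38 to 0.08) for Mkl2, and Srf rests on only 23 to 39 reads per library.

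**Figure D2:**
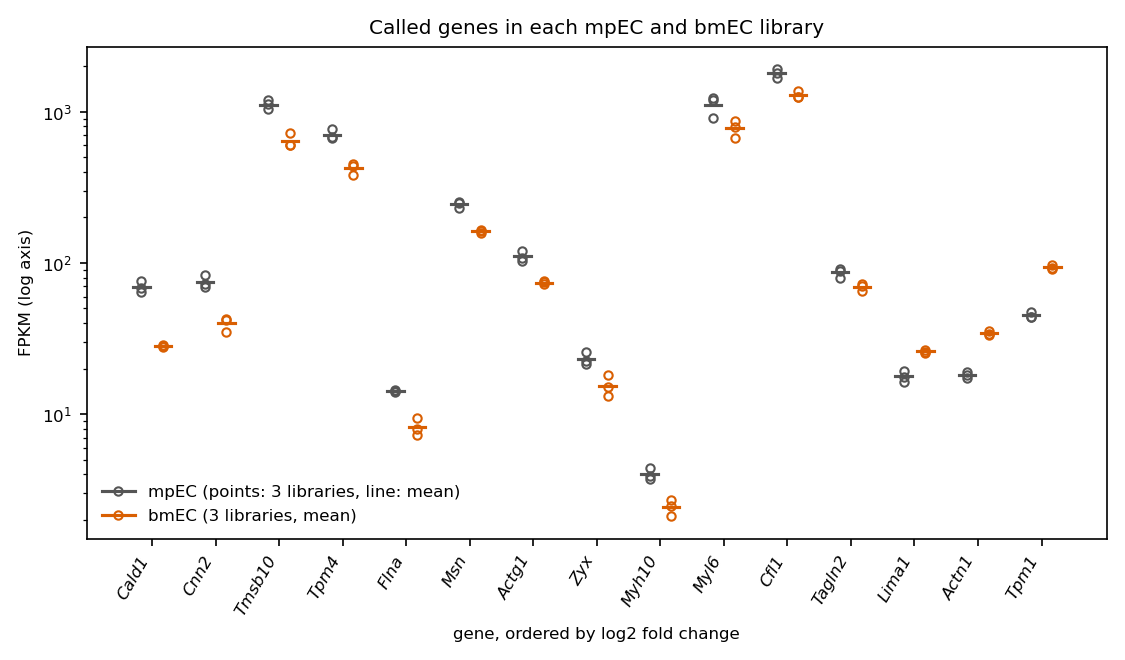
FPKM on a log axis of the 15 called genes in each of 3 mpEC (grey) and 3 bmEC (orange) libraries, with lines at the group means and genes ordered by log2 fold change. The groups are separate for each gene, from Cald1 at the left (69.9 and 28.3 FPKM on average) to Tpm1 at the right (45.0 and 93.5 FPKM).

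Shares within a gene family do not depend on the scaling of a library. Tpm1 made up 5.15%, 5.58% and 4.66% of all tropomyosin FPKM in mpECs and 14.4%, 13.5% and 15.1% in bmECs, while Tpm4 went from 78.3 to 81.3% down to 63.5 to 66.1%. The share of Actn1 among the alpha-actinins was 19.8 to 25.3% in mpECs and 34.0 to 43.4% in bmECs, that of Cnn2 among the calponins 12.4 to 13.9% and 6.54 to 8.88%, and that of Myh10 among the heavy chains 33.8 to 37.7% and 19.8 to 26.2%. None of these ranges overlapped, and each gave the smallest p that an exact permutation test of 3 against 3 libraries allows (p = 0.1).

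Other genes of the pathway did not move one way. In 4 lists with 66 genes, 56 were tested, and 8 were higher and 8 lower in bmECs by limma. Of all genes tested, 13.0% were higher and 10.5% lower. Of the Arp2/3, Ena/VASP and nucleation genes (17 tested), Arpc1a rose by 0.30 with Enah, and Wasf2 fell by 0.40 with Evl. The capping and monomer-binding list (15 tested) had 3 genes higher, with Twf1 at 0.61, Tmod3, which caps pointed ends, at 0.53 and Coro1b at 0.29 on the log2 scale, and 3 lower, with Capg at -1.02, Cotl1 at -0.44 and Twf2 at -0.29. Of the MRTF/SRF targets outside the 32 genes (14 tested), Filip1l and Csrp2 rose by 0.76 and 0.61, and Tgfb1i1 (Hic-5), Pdlim7 and Csrp1 fell by 1.52, 0.68 and 0.59 on the log2 scale. Of the ternary complex factors and immediate early SRF targets (10 tested), only Junb passed, with a log2 fold change of 1.11.

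Transcripts of other cells differed along with these groups. The summed level of 13 osteoblast and stromal markers was 280 to 1003 FPKM in mpECs and 77.2 to 106 FPKM in bmECs (5 of 9 tested lower and 1 higher, with Col1a1 at 23.9 to 88.5 FPKM against 0.453 to 0.667 FPKM). The 12 leukocyte markers summed to 9267 to 21341 FPKM in mpECs and 7241 to 10344 FPKM in bmECs. Only 1 of 12 was called, Lyz2, which was lower, but all 12 had a negative log2 fold change, with a median of -0.48. Erythroid markers (28251 to 52878 FPKM in mpECs and 42478 to 60395 FPKM in bmECs) and megakaryocyte and platelet markers (79.8 to 344 and 80.9 to 492 FPKM) overlapped, with 0 of 7 and 0 of 9 called by limma, and of 12 endothelial markers 4 were higher and 3 lower. Their part in the lower level of Cald1, Tmsb10, Msn and other genes was not tested. Of the defining markers of smooth muscle, which is rich in calponin, caldesmon and Tpm1, Myh11, Cnn1 and Des reached at most 0.112, 0.391 and 0.141 FPKM in any of the 6 libraries. The sum of all 12 smooth muscle and pericyte markers was 200 to 292 FPKM in mpECs and 626 to 652 FPKM in bmECs, and only Kcnj8 and Abcc9, which make up most of this sum, were called, both higher. The other markers with a mean above 1 FPKM were not called. Rgs5 was at 16.5, 22.7 and 15.5 FPKM in mpECs and at 1.10, 21.9 and 5.06 FPKM in bmECs (log2 fold change -1.52, limma adjusted p = 0.18). Acta2 ranged from 0.478 to 3.86 FPKM over the 6 libraries, and Tagln had a log2 fold change of -0.17 (limma, adjusted p = 0.71). Without any 1 of the 6 libraries, 8 to 12 members were called lower and 3 higher.

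In the Yap1/Taz set no gene of the 32 was called. Among 31 tested genes, 0 passed in either direction by limma, where 1.31% of 11320 genes did (0.883% higher and 0.424% lower), and limma-voom on recovered reads called 0 as well. At an unadjusted p under 0.05 there were 3 of 31 genes, against 17.9% of all genes tested. The median log2 fold change was 0.03, and the largest differences, singled out after their values were seen, were 0.37 for Tpm4 (95% confidence interval 0.07 to 0.67), -0.34 for Myl9 (-1.004 to 0.32) and -0.29 for Actn4 (-0.57 to -0.01). The summed share of the 32 genes was 1.731%, 1.795% and 1.786% of all FPKM in the control libraries and 1.586%, 1.651% and 1.727% in the libraries labelled ECKO, so that the groups were just separate (exact permutation test, p = 0.1, the smallest possible).

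Actb was at 1651, 1775 and 1787 FPKM in control libraries and 1508, 1632 and 1745 FPKM in libraries labelled ECKO, a log2 fold change of -0.10 with an interval of -0.37 to 0.18, and Actg1 was at -0.25 (-0.53 to 0.02). Srf stood at 13.6, 15.6 and 13.8 FPKM in control libraries and 15.4, 16.7 and 16.2 FPKM in those labelled ECKO, so that its groups overlapped (log2 fold change 0.16, -0.07 to 0.38). Mkl1 was at 5.75, 9.93 and 9.88 FPKM against 8.06, 8.70 and 9.10 FPKM. Mkl2 was at 6.19, 7.03 and 5.84 FPKM against 7.38, 6.39 and 6.83 FPKM. The intervals of the log2 fold change were -0.35 to 0.45 for Mkl1 and -0.16 to 0.36 for Mkl2, and the groups of both overlapped.

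By role, the genes of monomer binding and turnover lay between -0.15 (Tmsb4x) and 0.04 (Cfl1) on the log2 scale, the cross-linkers between -0.29 (Actn4) and 0.14 (Actn1), and the calponins, caldesmon and tropomyosins between -0.15 (Tpm3) and 0.37 (Tpm4). The myosin II genes ranged from -0.34 (Myl9) to 0.12 (Myl12b) and the ERM genes from -0.19 (Ezr) to 0.07 (Rdx). Zyx was at 0.26 with groups that did not overlap, which holds for 2 of the 31 genes and for 23.6% of all genes tested. Fhl2, at 0 to 0.766 FPKM, was under the filter. Within the tropomyosin family, Tpm4 took 49.2%, 49.7% and 46.6% of FPKM in control libraries and 55.4%, 57.8% and 55.8% in libraries labelled ECKO, and Tpm3 went from 41.5 to 44.7% down to 33.2 to 35.8%. Both shares separated the groups at the smallest p that the exact permutation test allows (p = 0.1). They are parts of the same total, so they do not vary independently. The family shares of Ezr, Myl12a and Myl12b also separated the groups, and all other family shares overlapped.

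Of 57 tested genes in the 4 pathway lists, limma called 0 and limma-voom 5, and 14 had an unadjusted p under 0.05. Of all genes tested, limma called 1.31%, and 17.9% had an unadjusted p under 0.05. Limma-voom called 289 higher and 117 lower among 11310 genes. The endothelial markers summed to 725 to 763 FPKM in control libraries and 915 to 1061 FPKM in libraries labelled ECKO (1 of 12 called higher, Cldn5), the osteoblast and stromal markers to 52.3 to 71.8 and 21.3 to 41.4 FPKM (3 of 10 called lower), and the leukocyte markers to 2733 to 3416 and 2276 to 4205 FPKM (0 of 12 called by limma). Of the smooth muscle and pericyte, platelet and erythroid markers, 0 of 4, 1 of 8 and 0 of 8 were called by limma. Their part in the values of the 32 genes was not tested.

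In Lats2 cKO libraries 19 of 31 tested genes rose, among them both actins and the genes of the monomer pool, and 6 of the 31 had a negative log2 fold change that did not pass the test. Their summed share of all FPKM was 2.07% and 2.12% in the control and 3.28% and 3.48% in the Lats2 cKO libraries (exact permutation test, p = 0.33, the smallest p that 2 against 2 libraries allow). Of 31 tested genes, 19 were higher and 0 lower at an adjusted p under 0.05 (limma, 12453 genes tested), where 11.8% of all genes tested were higher and 9.98% lower. Either way, 19 of 31 genes were called, against 21.8% of all genes. The median log2 fold change was 0.78 for the 31 genes and within 0.01 of 0 for all genes tested. By role, the calls comprised 2 of 2 actins, 4 of 4 genes of monomer binding and turnover, 1 of 5 cross-linkers, 5 of 6 calponins, caldesmon and tropomyosins, 4 of 6 myosin II genes, 0 of 3 ERM genes, 2 of 2 LIM genes of focal adhesions, and 1 of 3 genes of the SRF and MRTF group. Without either control library no gene of the whole table passed the threshold, while 15 and 18 of the 31 genes had an unadjusted p under 0.05 without control replicate 1 and 2, against 21.9% and 23.0% of all genes tested in these fits, and without Lats2 cKO replicate 2 the number of members called higher was 10. None passed the stricter cut-off of the study's methods, an adjusted p under 0.01 with an absolute log2 fold change over 0.5.

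Actb was at 1322 and 1435 FPKM in control and 2603 and 3017 FPKM in Lats2 cKO libraries, a log2 fold change of 1.02 (SE 0.17, limma adjusted p = 0.019). Actg1 was at 84.1 and 95.2 FPKM in control and 202 and 258 FPKM in Lats2 cKO libraries (log2 fold change 1.34, limma adjusted p = 0.011). The lowest cKO library thus exceeded the highest control library for both actins. Tmsb10 was at 56.7 and 60.7 FPKM in control and 207 and 405 FPKM in Lats2 cKO libraries, and its log2 fold change of 2.28 (SE 0.32, limma adjusted p = 0.013) comes with a wide spread between the cKO libraries. The other monomer-binding genes, Tmsb4x, Pfn1 and Cfl1, rose by 1.12, 1.04 and 1.02 on the log2 scale.

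Among the cross-linkers, Tagln2 was at 127 and 156 FPKM in control and 299 and 463 FPKM in Lats2 cKO libraries (log2 fold change 1.40, limma adjusted p = 0.020). The larger cross-linkers, with 5533 to 9400 exon bases against 2082 for Tagln2, were not called. Actn1 and Lima1, both higher in bmECs, had log2 fold changes of -0.02 (-0.35 to 0.31) and -0.07 (-0.36 to 0.22), Actn4 was at 0.38 and Flna at 0.69 (-0.02 to 1.40). In the next group, Tpm1 was at 37.2 and 35.3 FPKM in control and 97.3 and 148 FPKM in Lats2 cKO libraries (log2 fold change 1.70, SE 0.21, limma adjusted p = 0.012). Cald1, Cnn2, Tpm4 and Tpm3 rose by 1.13, 1.08, 0.62 and 0.56 on the log2 scale, and Cnn3 was at -0.05 (-0.43 to 0.32). Tpm3 and Tpm4 kept the call in 6 and 7 of 15 alternative settings.

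The myosin light chains were called and the heavy chains were not. The light chains have 1162 to 3360 exon bases and the heavy chains 10458 and 12928, and calls in this comparison shifted with gene length. Whether the split goes beyond that shift was not tested. Myl9, the regulatory light chain typical of smooth muscle, was at 4.84 and 8.25 FPKM in control and 26.9 and 35.6 FPKM in Lats2 cKO libraries (log2 fold change 2.12, SE 0.26, limma adjusted p = 0.011), on 28 to 206 reads per library. Myl6 was at 338 and 410.3 FPKM in control and 804 and 1186 FPKM in Lats2 cKO libraries (log2 fold change 1.39, limma adjusted p = 0.019). Myl12a was at 160.0 and 150.2 FPKM in control and 293 and 410.5 FPKM in Lats2 cKO libraries (log2 fold change 1.16, limma adjusted p = 0.018), and Myl12b rose by 0.88. For each of these light chains every cKO library lay above every control library, as it did for 27 of the 31 genes up or down and for 68.2% of all genes tested. The heavy chains Myh9 and Myh10 had log2 fold changes of 0.46 (0.09 to 0.82, adjusted p = 0.078 by limma) and 0.40 (0.03 to 0.78, adjusted p = 0.11 by limma).

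Fhl2, a LIM protein and known SRF target, was at 2.31 and 0.753 FPKM in control and 10.002 and 11.7 FPKM in Lats2 cKO libraries. It had the largest log2 fold change of the 31 genes, 2.29 (SE 0.33, limma adjusted p = 0.014), and rests on as few as 8 reads in a control library. Zyx rose by 0.78 on the log2 scale. Srf itself was at 4.52 and 5.17 FPKM in control and 7.90 and 7.85 FPKM in Lats2 cKO libraries (log2 fold change 0.60, SE 0.14, limma adjusted p = 0.040), a call that held in 6 of 15 alternative settings with adjusted p from 0.036 to 0.25. Its coactivators differed in sign without being called. Mkl1 was at 3.52 and 4.15 FPKM in control and 3.55 and 2.73 FPKM in Lats2 cKO libraries, with overlapping groups (log2 fold change -0.23, -0.71 to 0.26). Mkl2 was at 6.13 and 5.18 FPKM in control and 8.16 and 9.38 FPKM in Lats2 cKO libraries (log2 fold change 0.56, 0.16 to 0.95, limma adjusted p = 0.060). The ERM genes did not follow the actins, with Msn at 0.38, Rdx at -0.09 and Ezr at -0.84 on the log2 scale. Ezr, at 21.4 and 22.5 FPKM in control and 15.5 and 8.98 FPKM in Lats2 cKO libraries, missed the threshold (limma, adjusted p = 0.069) and was called lower in 4 of 15 alternative settings.

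**Figure D3:**
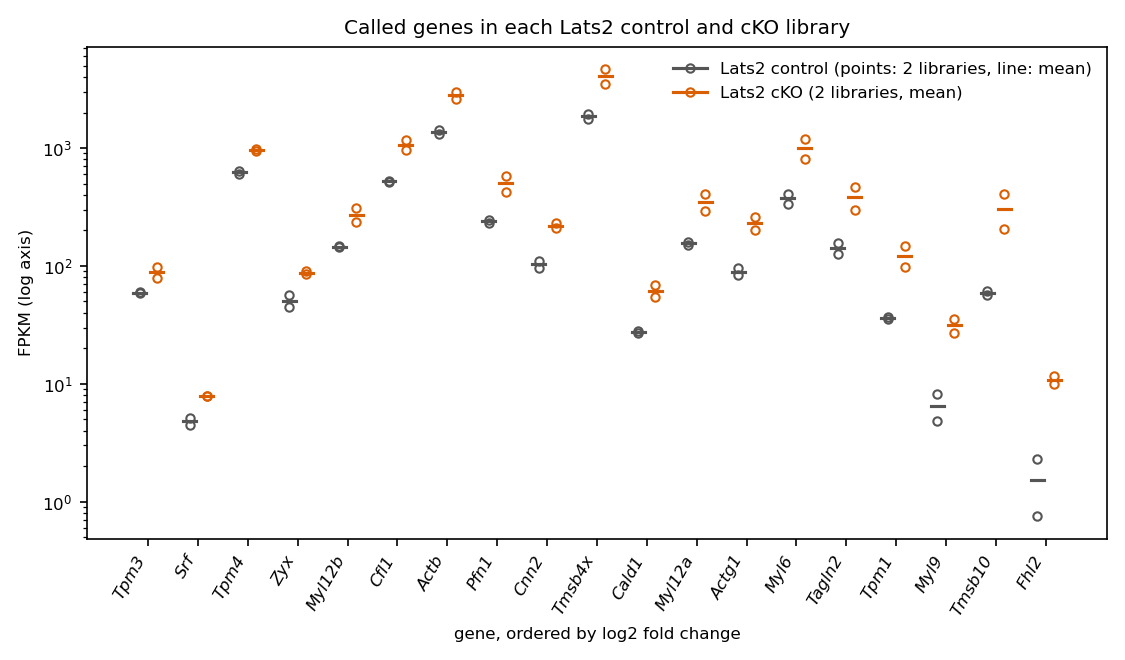
FPKM on a log axis of the 19 called genes in each of 2 Lats2 control (grey) and 2 Lats2 cKO (orange) libraries, with lines at the group means and genes ordered by log2 fold change. The groups are separate for each gene, from Tpm3 at the left (59.4 and 88.8 FPKM on average) to Fhl2 at the right (1.53 and 10.8 FPKM).

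Of the 18 called genes with a promoter window, 6 held a CArG box, those printed above for Srf, Actg1, Cnn2, Myl9, Myl6 and Fhl2. Of the 12 uncalled genes with a window 1 did, Lima1. The 6 genes have 1162 to 3187 exon bases and Lima1 has 7608, and calls in this comparison shifted with gene length, as given below. The contrast was not tested and cannot be told apart from gene length here. In bmECs a CArG box was held by 1 of 3 genes called higher, 3 of 12 called lower and 3 of 14 not called. The TEAD motif was held by 5 of the 18 genes called in Lats2 cKO libraries and by 4 of the 12 not called. Within families, Tmsb10 took 2.82% and 3.35% of beta-thymosin FPKM in control and 5.61% and 8.003% in Lats2 cKO libraries, Cnn2 15.5% and 18.5% against 28.2% and 34.0% of the calponins, and Tpm1 5.33% and 4.78% against 8.71% and 12.1% of the tropomyosins. Msn took 76.8% and 77.6% of ERM FPKM in control and 83.1% and 85.5% in Lats2 cKO libraries. With 2 against 2 libraries each of these separations has an exact permutation p of 0.33, the smallest possible.

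**Figure D4:**
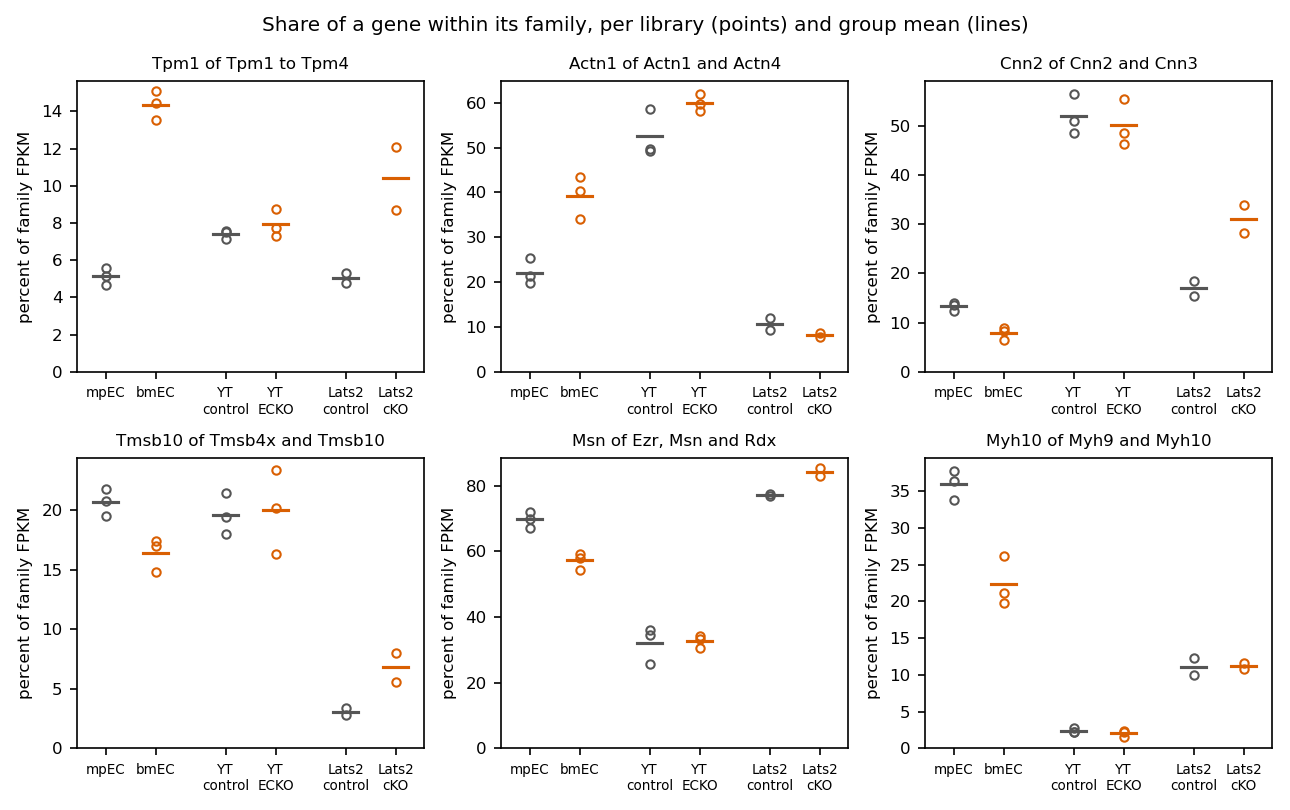
Percent of the summed FPKM of a gene family taken by Tpm1, Actn1, Cnn2, Tmsb10, Msn and Myh10 in each library (points) with group means (lines). YT control and YT ECKO are the control libraries and the libraries labelled ECKO of the Yap1/Taz set. Tpm1 has a larger share in bmECs than in mpECs (14.3 and 5.13% on average) and in Lats2 cKO than in control libraries (10.4 and 5.05%).

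Other pathway genes moved the same way where they were called. Of 56 genes tested in the 4 lists, 18 were higher and 0 lower in Lats2 cKO libraries by limma, and 28 had an unadjusted p under 0.05. Of all genes tested, 11.8% were higher, 9.98% were lower, and 38.6% had an unadjusted p under 0.05. The MRTF/SRF targets outside the 32 genes had 9 of 15 called, with a median log2 fold change of 0.75, and their leading genes were Cyr61 and Ctgf, matricellular proteins that are also Yap1/Taz targets, and Acta2, the smooth muscle actin. Cyr61 was at 28.3 and 44.3 FPKM in control and 316 and 537 FPKM in Lats2 cKO libraries (log2 fold change 3.50). Ctgf was at 68.3 and 47.1 FPKM and 264 and 469 FPKM (log2 fold change 2.61), and Acta2 at 0.339 and 2.17 FPKM and 9.22 and 9.93 FPKM (log2 fold change 2.36). Of the Arp2/3, Ena/VASP and nucleation genes 5 of 16 were called, with Arpc3, Vasp and Arpc4 at 0.82, 0.77 and 0.63 on the log2 scale, and of the capping and monomer-binding genes 4 of 15, with Capg, Cotl1 and Coro1c at 2.13, 1.69 and 0.57. Of the ternary complex factors and immediate early SRF targets, 0 of 10 were called by limma and by limma-voom, and 0 had an unadjusted p under 0.05.

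Some technical and cellular values moved with the Lats2 groups. The gene with the highest FPKM in every Lats2 library was Gm23935, at 6093 and 7629 FPKM in control and 15846 and 26667 FPKM in Lats2 cKO libraries. The FPKM of all genes summed to 342284 and 341172 in control and 382473 and 444999 in Lats2 cKO libraries. The part of this difference in the summed shares was not tested. Fold changes shifted with gene length in Lats2 cKO libraries, with a median log2 fold change of 0.30 for 1603 genes with under 1500 bases of exon, 0.10 for genes of 1500 to 3000 bases, and -0.07 for genes of 3000 to 6000 bases as well as for longer ones. Of the members, 3 of 3, 10 of 10, 3 of 7 and 3 of 11 were called in these classes, where 22.8%, 16.0%, 9.26% and 6.67% of all genes were called higher, and the members' median log2 fold changes were 2.12, 1.03, -0.02 and 0.46. With the trend in length and GC content removed from each library, 18 of the 31 genes were called higher. On the TPM scale, which sets the length-scaled values of each library to 1 total, the median of all genes was at -0.26 and 15 of the 31 genes were called higher and 1, Ezr, lower, and the all-gene calls of 1468 higher and 1243 lower became 893 and 1969. In bmECs against mpECs the same rescaling put the median of all genes at -0.14 and the calls at 880 higher and 1871 lower in place of 1481 and 1201, with 2 members higher and 13 lower.

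Leukocyte markers summed to 1692 to 2384 FPKM in Lats2 control and 536 to 894 FPKM in Lats2 cKO libraries (6 of 12 called lower). Erythroid markers summed to 2436 to 3670 and 243 to 1395 FPKM (1 of 7 called lower), and megakaryocyte and platelet markers to 30.4 to 124 and 17.04 to 18.4 FPKM (1 of 7 called lower). Osteoblast and stromal markers summed to 50.4 to 115 and 91.3 to 121 FPKM (2 of 8 called higher). Endothelial markers summed to 3360 to 3673 and 3202 to 3352 FPKM (of 12, Pecam1 called higher and Kdr and Tek lower). Of 6 tested smooth muscle and pericyte markers, Acta2, Tagln and Rgs5 were called higher and Kcnj8 and Abcc9 lower. The median log2 fold change of these 6 was 1.44. All 12 together still summed to less, with 465 to 556 FPKM in control and 133 to 145 FPKM in Lats2 cKO libraries. The sum therefore does not stand for the list. Myh11, Cnn1 and Des, which define mature smooth muscle, were at most at 0.360, 0.071 and 0.428 FPKM in any of the 4 libraries, while Pdgfrb was at 0.587 and 0.215 FPKM in control and 1.69 and 3.63 FPKM in Lats2 cKO libraries. Acta2 and Tagln are SRF targets as well as markers, and the part of such cells in the rise of Myl9, Tpm1 and Fhl2 was not tested.

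Set side by side, the 2 comparisons with calls share no libraries. Of the 12 genes lower in bmECs, 9 were higher in Lats2 cKO libraries, namely Actg1, Cfl1, Tmsb10, Tagln2, Cnn2, Cald1, Tpm4, Myl6 and Zyx, and 3 were not called there (Flna, Myh10 and Msn). Of the 15 tested genes not called in bmECs, 9 were also higher in Lats2 cKO libraries. Over all genes tested in both comparisons, 424 of 1128 lower in bmECs (37.6%), 34 of 1401 higher in bmECs (2.43%) and 796 of 7942 not called in bmECs were higher in Lats2 cKO libraries. Of the 3 genes higher in bmECs, Tpm1 was also higher in Lats2 cKO libraries, and Actn1 and Lima1 were not called. A further 9 genes, among them Actb, Pfn1, Tmsb4x, Myl9, Fhl2 and Srf, were called only in the Lats2 comparison, and the difference between the comparisons was not tested for any of them. Among endothelial markers, Kdr and Tek were higher and Pecam1 lower in bmECs, with the reverse in Lats2 cKO libraries. Cldn5 and Erg (higher) and Emcn and Tie1 (lower) were called in bmECs only. The part of the mix of marrow and metaphyseal ECs in the Lats2 libraries was not tested.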

How the data were processed

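Per the labels and methods, ECs sorted by FACS from mouse bone gave total RNA for stranded libraries, which the authors mapped to GRCm38 (mm10) with TopHat and counted with HTSeq 0.6.1. The authors deposited FPKM values per gene and library. The files of the Yap1/Taz set name no unit, and were taken as FPKM because most of their low values are whole multiples of a step that scales with gene length. How counts became FPKM and the strand setting of the counting are not given in the sources used here. The authors ran DESeq2 on counts that were not used here.

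Values were taken as log2(FPKM + 1). The test was made for genes averaging 1 FPKM or more in the groups compared, using limma 3.58.1 in R 4.3.3 (group as the only term, empirical Bayes with a trend, two-sided), with Benjamini-Hochberg adjustment over all genes tested, and called at an adjusted p under 0.05. A fold change on this scale understates the change of low genes. Reads were recovered from FPKM and GENCODE exon lengths, and 62.3% to 70.0% of values up to 20 reads lay within 0.02 of a whole number, so the reads serve for depth and for an alternative with limma-voom only. They carry no molecular identifiers.

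The 32 genes, the pathway and marker lists and the tests were chosen with earlier results of these data known, and the family shares, length classes, motif searches and all-gene counts of calls shared by both comparisons after the values were seen. Named are, per comparison, up to 8 called genes with the largest change, plus Actb, Srf, Mkl1 and Mkl2, and up to 3 genes per list and direction with a mean of at least 5 FPKM. 1 further pathway list is not reported here. Files without symbols were matched by Ensembl identifier (21375 of 21603). Up to 26.7% of the exon bases of a member (Myl12b) and 17.7% (Cnn3) overlap another gene on the same or the other strand. The procedure was run on simulated counts with a fixed dispersion, no trend with gene length and no admixture of other cells. That run does not show how the fits behave where libraries differ in these respects. Alternatives concerned the pseudocount, filters, scaling, the variance model, a replicate block, a stricter threshold and leaving out each library, and 3 were added after seeing the data (length and GC trend removed, the same with the block, limma-voom).

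Replicate numbers in the labels do not state a shared litter or day. The correlations of same-numbered libraries were under 0.1 in at least 1 pair of each set. They cannot decide whether libraries were paired, since so few libraries give few values, in the Lats2 set only 1 up to its sign. No pairing of libraries is stated, and the fits are unpaired, with a replicate block as an alternative.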

Additional observations from a re-analysis of the deposited data

How the results depend on the processing

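Over 1493 fold changes of single genes under the alternatives, none that was called in either fit changed sign, and 49 that were called in neither did. In bmECs against mpECs, 22 gene values lost the call and 8 gained it, and in the Lats2 comparison 77 and 7, with 19 lost in each fit without a control library. Under the study's stricter cut-off, the counts were 744 higher and 591 lower genes and 7 lower members in bmECs, 0 and 1 genes in libraries labelled ECKO, and 106 and 151 genes and 0 higher members in Lats2 cKO. Without a filter, 0 and 1 genes were called in libraries labelled ECKO, and 720 and 669 genes and 8 higher members in Lats2 cKO. After rescaling to TPM, 880 and 1871 genes were called in bmECs, and 893 and 1969 genes and 1 lower member (Ezr) in Lats2 cKO. In libraries labelled ECKO, the counts were 10 and 7 genes without the variance trend, 174 higher with the length and GC trend removed, and 289 and 117 with limma-voom, which also called 1 lower member in Lats2 cKO. Which property of the values moves these counts was not tested.

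With the replicate block, 29 genes were higher and 16 lower in libraries labelled ECKO, and with the block and the length and GC correction 1 and 1, and 1 member was lower in Lats2 cKO; the other counts with the block, such as 3 and 12 members in bmECs and 18 in Lats2 cKO, stayed within 1.5 times. Deviations of same-numbered libraries correlated at 0.31, 0.088 and 0.10 for mpECs and bmECs, at -0.18, -0.12 and -0.16 in the Yap1/Taz set and at 0.065 in the Lats2 set, and in the first 2 sets not every library correlated best with its own number.

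Leaving out 1 library gave 1018 to 1353 higher and 799 to 1026 lower genes in bmECs. In libraries labelled ECKO it gave 0 to 215 higher and 1 to 78 lower genes, with 0 higher and 1 lower without ECKO replicate 2 or 3 and 215 and 78 without ECKO replicate 1, and 0 members in each case by limma, where 1 to 4 of 31 had an unadjusted p under 0.05. In Lats2 cKO it gave 0 to 1446 higher and 0 to 1255 lower genes, 0 to 16 higher members and 0 to 1 lower members. When a Lats2 group is left with 1 library, that library is assumed to vary like the other group. With 2 libraries a group at this depth, genes at the level of Fhl2 or Tpm2 are the least certain.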
